A study of Mus musculus with 6 samples.

Results

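Transcript levels of the Wnt pathway were examined in TC-1/A9, an MHC class I-deficient tumour line derived from transformed lung cells of C57BL/6 mice. A list of 48 genes was taken, made up of Wnt ligands, the enzyme that prepares them for secretion, Frizzled receptors, co-receptors, secreted inhibitors, Dishevelled proteins and their antagonists, the β-catenin destruction complex, β-catenin and the TCF/LEF factors. Genes were found by the symbol that the array annotation gives each probe, and 25 of the 48 had a named probe that was detected on at least 1 array, among 9192 genes measured in all. In the DAC/TSA group, cells received 3 μM 5-aza-2'-deoxycytidine (DAC), which blocks the maintenance of DNA methylation, for 48 h, and then 30 ng/ml trichostatin A (TSA), which blocks histone deacetylases, for 24 h. The untreated group received neither agent. The labels name no vehicle. Each group had 3 cultures, described as biological replicates, and each culture gave 1 Mouse WG-6 bead array (Illumina).

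Wnt proteins are secreted lipid-modified ligands that bind Frizzled receptors together with Lrp5 or Lrp6. In the canonical branch the signal passes through Dishevelled, stops a complex of Axin, Apc and Gsk3b from marking β-catenin for destruction, and lets β-catenin join TCF/LEF factors on target genes. Other branches use receptors such as Ror2 and Ryk, or planar cell polarity proteins, and do not need β-catenin. In the lung, Wnt signals pass between epithelium and mesenchyme during development and repair, and several secreted Wnt inhibitors are known for promoter methylation in human tumours.

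The number of detected probes was 15008 to 15783 on the DAC/TSA arrays and 14704 to 14802 on the untreated arrays, and arrays within a group correlated across kept probes at r = 0.992 or above. Markers of other cells were read beside the Wnt genes. All 5 measured epithelial markers of 10 listed were higher, with a summed linear signal of 780.8 to 944.7 on DAC/TSA arrays and 233.3 to 248.0 on untreated arrays, and 4 of the 5 (Krt18, Krt19, Cldn3 and Cldn4) were undetected on every untreated array, so that they entered through the treated arrays alone and had to be higher. Of 10 fibroblast and mesenchymal markers 8 were measured, of which 5 were lower (Vim, Col1a1, Col3a1, Fn1 and Acta2) and 1 was higher (Thy1, by 2.56 log2). Their summed signal was 10189.5 to 11111.7 on DAC/TSA arrays and 19812.9 to 20513.7 on untreated arrays. Of the lung epithelial identity genes 2 of 10 were measured, with sums of 1118.8 to 1212.0 on DAC/TSA arrays and 443.4 to 488.5 on untreated arrays. This rise was that of Aqp5 alone (2.11 log2), while Hopx was nearly level (-0.08 log2), and surfactant genes had no named kept probe. Leukocyte markers were measured for 2 of 12, with sums of 103.4 to 112.1 on DAC/TSA arrays and 150.0 to 154.8 on untreated arrays, with Lyz2 higher and Cd79b lower, and the defining marker Ptprc had no named kept probe. Endothelial markers were measured for 3 of 8, with sums of 1787.5 to 2026.4 on DAC/TSA arrays and 1727.2 to 1826.4 on untreated arrays, and Egfl7 and Plvap were higher and Flt1 lower. The part of these shifts in the Wnt results was not tested, and in bulk RNA a change in the number of cells of a type and a change in RNA per cell cannot be told apart.

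DAC/TSA changed the Wnt genes in both directions. The ligands Wnt10a and Wnt6 and the receptor Fzd3 were higher after treatment, whereas 9 genes were lower. Dkk3, Fzd7 and Fzd5 showed the largest decreases among genes detected in both groups. Wnt10a and Wnt6 were undetected on every untreated array, and Fzd2, a lower gene, on every DAC/TSA array. The detection filter thus fixed the direction of Wnt10a, Wnt6 and Fzd2, and their calls are no evidence of direction. In all, 12 of the 25 measured genes were called at an adjusted p of at most 0.01 (limma, with Benjamini-Hochberg correction for the false discovery rate), where 43.9% of all measured genes did. The 3 higher genes stand beside 22.5% of all genes called higher, and the 9 lower genes beside 21.4% called lower. The median difference over the 25 genes was -0.10 log2, against 0.01 over all genes. The groups did not overlap in the called genes, but this does not set them apart. They did not overlap either in Wnt5b, Wnt10b, Fzd6, Lrp6 and Ryk, which were not called. The share of all genes without overlap was not computed. When the arrays were scaled to a common median instead of quantile-normalised, 3 genes were higher and 3 lower, where 13.3% of all genes were called higher and 8.44% lower, so the excess of lower over higher genes depends on the scaling. With the replicate number as a block, 5 genes were higher, where 29.4% of all genes were.

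**Figure D1:**
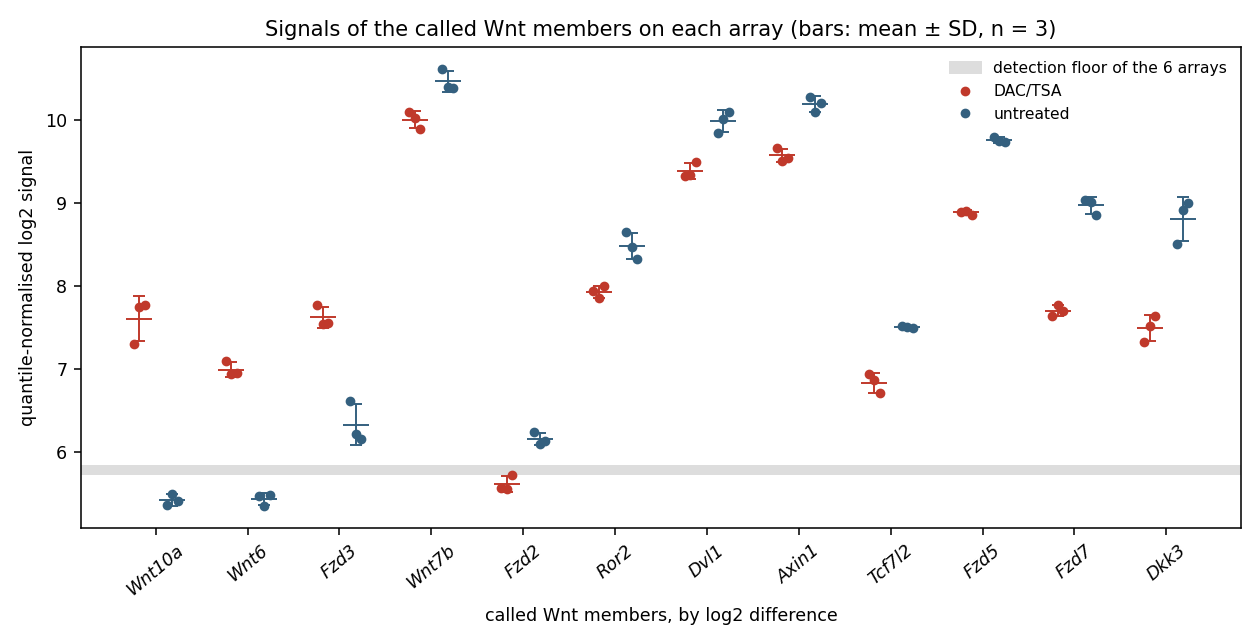
Quantile-normalised log2 signal of the 12 called Wnt genes on each array (points), with DAC/TSA left of untreated in every pair and bars for the mean ± SD (n = 3). The grey band is the detection floor of the arrays. Wnt10a and Wnt6 lie below it in untreated cells and Fzd2 lies below it in treated cells.

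Each gene was read on its brightest kept probe. The 25 genes had 39 kept probes, of which 7 were called higher and 14 lower, where 19.3% of all kept probes were called higher and 19.3% lower. The filter on detection shaped this set. Wnt5b, Wnt6, Wnt10a and Lrp6 were undetected on all untreated arrays and Fzd2 on all DAC/TSA arrays, so each passed the filter only through the group in which it is higher and had to differ that way. Where no array of a group detected a gene, that group was set to the lowest signal that counted as detected. The resulting fold is a lower bound, written "at least". It compares means and carries no error of its own. Signals were not background-subtracted, and probe levels are not compared between genes, since probes differ in their response.

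Of 13 Wnt ligands 6 were measured. Among them 2 were upregulated (33.3%, against 22.5% of all genes) and 1 was downregulated (16.7%, against 21.4%). Both upregulated ligands were undetected on all untreated arrays, and 6 genes are too few to set against these shares. Wnt10a is a canonical ligand of tooth and hair development. Its log2 signal was 7.30, 7.75 and 7.78 on the DAC/TSA arrays and 5.36, 5.50 and 5.41 on the untreated arrays. All treated arrays thus stood above detection and all untreated arrays below it. Wnt10a was at least 3.43-fold higher in DAC/TSA-treated cells (fitted difference 2.19 ± 0.12 log2, standard error, adjusted p = 4.08e-07). Its neighbour Wnt6, a ligand of ectoderm and other epithelia, gave 7.10, 6.94 and 6.95 with DAC/TSA and 5.47, 5.36 and 5.48 without. The treated arrays were close to one another, and again no untreated array detected it. Wnt6 was at least 2.24-fold higher (1.56 ± 0.08 log2, adjusted p = 3.01e-07). The other Wnt6 probe, also undetected on the untreated arrays, gave at least 2.14-fold (1.57 log2, adjusted p = 2.29e-07). After background correction with neqc the fitted differences were larger, at 3.03 log2 for Wnt10a and 2.29 log2 for Wnt6. The detection filter fixed the direction of both ligands, so their adjusted p-values are no separate evidence of it.

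Wnt6 is the called-higher gene for which a RefSeq promoter window was at hand. The window is shown for its CpG sites, whose methylation was not measured. It lies at chr1:74771642-74771941 on the plus strand of GRCm38.p6, from 250 bases before to 50 bases after the annotated transcription start. CpG sites are in capitals, and there are 31 of them.
Wnt6: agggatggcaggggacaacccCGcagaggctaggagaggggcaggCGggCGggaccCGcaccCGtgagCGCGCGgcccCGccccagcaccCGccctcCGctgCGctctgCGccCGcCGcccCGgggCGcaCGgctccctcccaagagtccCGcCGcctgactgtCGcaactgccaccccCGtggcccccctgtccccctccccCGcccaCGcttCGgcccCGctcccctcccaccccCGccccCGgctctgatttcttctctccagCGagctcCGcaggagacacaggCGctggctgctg

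Wnt6 and Wnt10a follow each other on chromosome 1 and were the only pair of the 48 genes with no protein-coding gene between them in the RefSeq order. The genes beside them were then read, 7 on each side, a view chosen after the values of both ligands were seen. Of these 14 neighbours 8 were measured. Bcs1l, a mitochondrial chaperone gene, was higher (0.80 log2, adjusted p = 1.14e-05). Stk36 (-0.53 log2, adjusted p = 0.00124), Ttll4 (-0.88 log2, adjusted p = 2.35e-05) and Slc23a3 (-1.20 log2, adjusted p = 2.53e-06) were lower. The other 4 were not called, with Cyp27a1 at 0.25 log2 (adjusted p = 0.0348). Neighbours thus went in both directions, where 22.5% of all genes were called higher and 21.4% lower, and 8 genes are too few to set against these shares. Cyp27a1, the nearest measured one, lay near the detection floor (mean log2 signal 5.85 with DAC/TSA and 5.60 without), so its missing call says little.

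**Figure D2:**
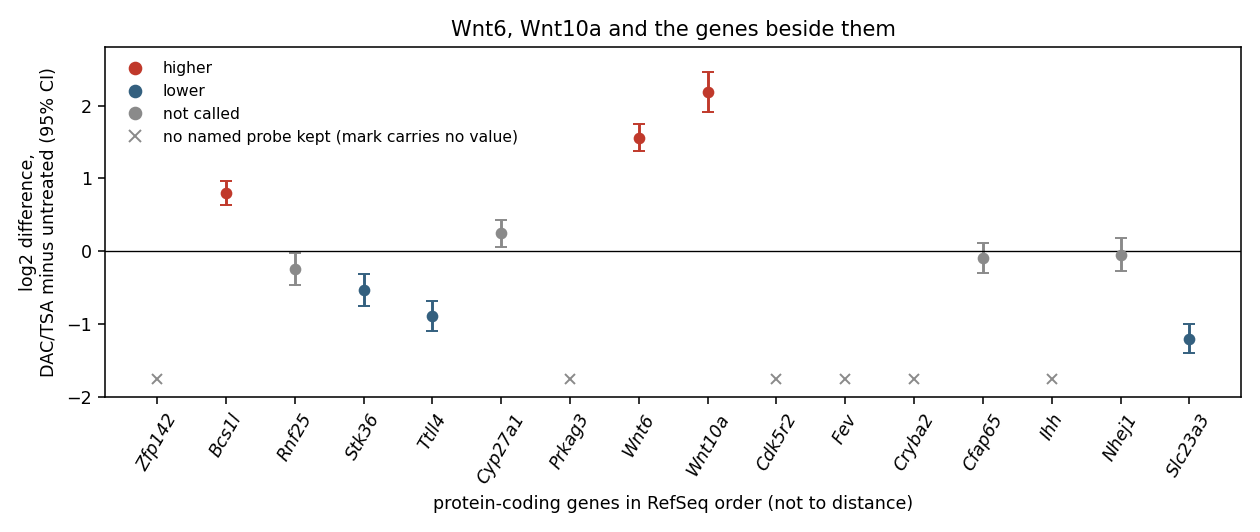
Log2 difference (DAC/TSA minus untreated, brightest probe, bars: 95% confidence interval) of Wnt6, Wnt10a and 7 protein-coding genes on each side in RefSeq order, with crosses for genes without a named kept probe. Wnt10a (2.19) and Wnt6 (1.56) stand above the 8 measured neighbours, which range from -1.20 in Slc23a3 to 0.80 in Bcs1l.

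Wnt7b, a ligand made by the airway epithelium of the developing lung, was the downregulated ligand. Its log2 signal was 10.10, 10.03 and 9.89 on DAC/TSA arrays and 10.61, 10.40 and 10.39 on untreated arrays. The groups were separate, though by less than in Wnt6 or Wnt10a. The difference of -0.46 ± 0.10 log2 was 1.38-fold (95% confidence interval 1.19 to 1.59, adjusted p = 0.00233), and the other probe gave -0.55 log2 (adjusted p = 0.000332). Without DAC/TSA array 2 the adjusted p was 0.0101 (-0.47 log2) and without DAC/TSA array 3 it was 0.0136 (-0.40 log2), and the call held when any of the other arrays was left out.

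Wnt5a, the best known ligand of the β-catenin-independent branch, gave different answers on its probes. On the brighter probe it was not called (-0.08 ± 0.10 log2, adjusted p = 0.488) and the groups overlapped. On the dimmer probe its log2 signal was 6.92, 6.85 and 6.89 with DAC/TSA and 6.28, 6.28 and 6.31 without. That probe was 1.51-fold higher (95% confidence interval 1.35 to 1.70, adjusted p = 9.35e-05). Averaging the probes turned the sign of the difference to 0.26 log2 (adjusted p = 0.0112). Which transcripts each probe reads is not given in the sources used here. Wnt5b, its closest relative, differed by 0.15 log2 (adjusted p = 0.132), and Wnt10b, known for its part in bone formation, by -0.09 log2 (adjusted p = 0.357). Porcn, the enzyme that attaches the lipid to Wnt proteins, was not called (0.09 log2, adjusted p = 0.402), and its dimmer probe gave -0.05 log2 (adjusted p = 0.712). The ligands Wnt2, Wnt2b, Wnt3, Wnt4, Wnt7a, Wnt9a and Wnt11 had no named kept probe.

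**Figure D3:**
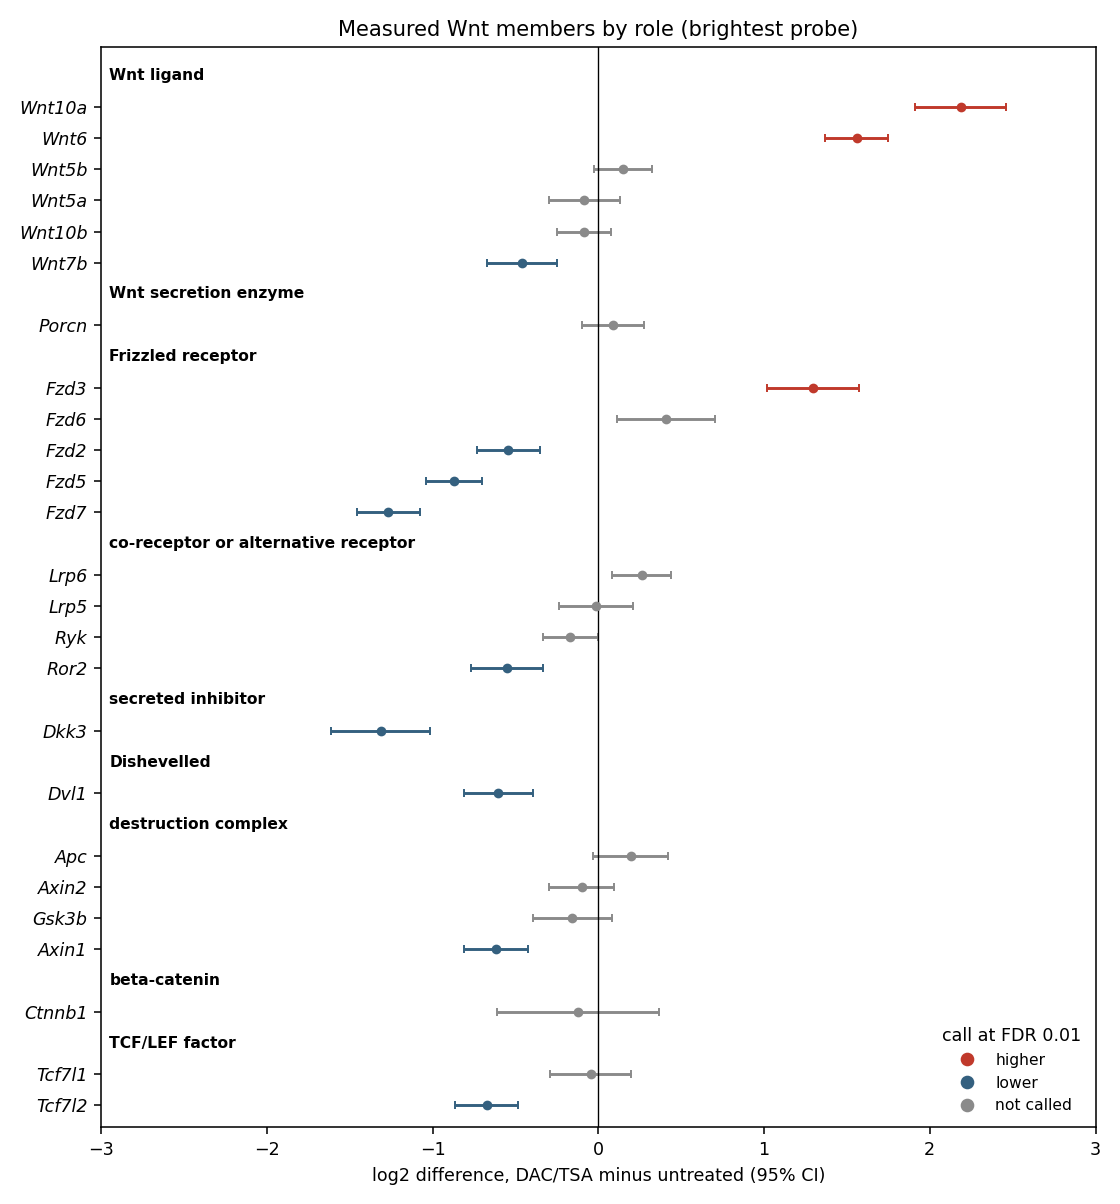
Log2 difference (DAC/TSA minus untreated) of the 25 measured Wnt genes on their brightest probe, grouped by role, with bars for the 95% confidence interval. The 3 called-higher genes are ligands and a Frizzled receptor, and called-lower genes occur in every measured role but Porcn and β-catenin.

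Frizzled receptors showed opposite changes within the family. Of 8 listed, 5 were measured. Fzd3 was higher (20%, against 22.5% of all genes), and Fzd7, Fzd5 and Fzd2 were lower (60%, against 21.4%). These 5 genes are too few to set against the shares. Fzd3, known from axon guidance and planar cell polarity, had log2 signals of 7.77, 7.55 and 7.56 on DAC/TSA arrays and 6.62, 6.22 and 6.16 on untreated arrays. It was detected on all arrays, with a wide gap between the groups. Fzd3 was 2.45-fold higher (95% confidence interval 2.02 to 2.97, adjusted p = 1.46e-05), and its dimmer probe was 1.98-fold higher (adjusted p = 8.7e-06). Fzd6, which acts with Fzd3 in planar cell polarity, gave 6.97, 7.27 and 7.19 with DAC/TSA and 6.44, 6.94 and 6.83 without. The groups narrowly did not overlap, and in both groups array 1 was the lowest. It missed the threshold (0.41 ± 0.13 log2, adjusted p = 0.025). It passed with the replicate number as a block (adjusted p = 0.000506). Its dimmer probe differed by 0.14 log2 (adjusted p = 0.401).

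Fzd7, a receptor of embryonic and intestinal stem cells, had log2 signals of 7.64, 7.78 and 7.70 on DAC/TSA arrays and 9.04, 9.02 and 8.86 on untreated arrays. No treated array came near an untreated one. Fzd7 was 2.41-fold lower (95% confidence interval 2.11 to 2.75, adjusted p = 1.35e-06). Fzd5, needed for the maturation of Paneth cells in the gut, gave 8.90, 8.91 and 8.86 with DAC/TSA and 9.80, 9.74 and 9.74 without on its brighter probe. Replicates were tight on this probe, which was 1.83-fold lower (95% confidence interval 1.63 to 2.06, adjusted p = 7.12e-06). The dimmer Fzd5 probe went the other way without reaching the threshold (0.23 ± 0.10 log2, adjusted p = 0.0721), and the mean of both probes was -0.32 log2 (adjusted p = 0.0036). Fzd2 was low throughout, at 5.56, 5.56 and 5.72 with DAC/TSA and 6.24, 6.10 and 6.14 without. No treated array detected it, and all untreated arrays did. Fzd2 was at least 1.31-fold lower (fitted difference -0.54 ± 0.09 log2, adjusted p = 0.000403), a direction that the detection filter fixed. With neqc the fitted difference was -0.91 log2. Fzd1, Fzd4 and Fzd8 had no named kept probe.

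The promoters of Fzd7 and Fzd5 are shown beside that of Wnt6, as the windows at hand for the called-lower Frizzled receptors. Fzd7 lies at chr1:59481897-59482196 on the plus strand and Fzd5 at chr1:64737701-64738000 on the minus strand (RefSeq, GRCm38.p6). Capitals mark CpG sites, of which there are 24 in the Fzd7 window and 38 in the Fzd5 window.
Fzd7: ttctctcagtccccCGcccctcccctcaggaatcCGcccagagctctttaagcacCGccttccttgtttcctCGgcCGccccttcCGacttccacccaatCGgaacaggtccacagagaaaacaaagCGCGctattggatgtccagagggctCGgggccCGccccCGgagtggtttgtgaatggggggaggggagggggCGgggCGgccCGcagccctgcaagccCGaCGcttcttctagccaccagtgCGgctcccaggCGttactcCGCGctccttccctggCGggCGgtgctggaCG
Fzd5: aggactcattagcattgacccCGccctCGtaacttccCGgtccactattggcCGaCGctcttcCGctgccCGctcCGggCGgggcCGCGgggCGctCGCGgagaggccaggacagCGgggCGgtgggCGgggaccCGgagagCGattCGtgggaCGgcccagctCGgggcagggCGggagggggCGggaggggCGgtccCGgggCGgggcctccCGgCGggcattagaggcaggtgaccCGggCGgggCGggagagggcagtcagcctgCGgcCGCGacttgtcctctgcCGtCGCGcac

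CpG-rich windows thus occurred in the downregulated receptors and in the upregulated ligand. RefSeq windows were at hand for 33 of the 48 genes, with a median of 31 CpG sites, against 7 over the windows of 27025 genes. Those 27025 genes were not filtered by gene type, so the sets may differ in kind. Where a gene had several windows, the one furthest upstream was used. The median was 34 in the 5 called-lower genes with a window (24 to 38) and 34 in the 7 genes that were measured and not called. The 20 genes with a window but no named kept probe had a median of 25.5. TCF/LEF core letters, CTTTGTT or CTTTGAT on either strand, were found in 4 of the 33 windows (12.1%), those of Wnt3, Wnt11, Fzd7 and Dkk1, and in 9.3% of all windows. In Fzd7 the match is CTTTGTT on the strand opposite to the gene, at positions -130 to -124 from the start. DNA methylation was not measured on these arrays.

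All 4 co-receptors and alternative receptors were measured. Ror2, a receptor tyrosine kinase that binds Wnt5a, was the called one. Its log2 signal was 7.94, 7.85 and 8.0 on DAC/TSA arrays and 8.65, 8.47 and 8.33 on untreated arrays. The untreated arrays were spread more widely, yet all lay above the treated ones. Ror2 was 1.47-fold lower (95% confidence interval 1.26 to 1.71, adjusted p = 0.000901). Ryk, a receptor with an inactive kinase, was not called on its brighter probe (-0.17 log2, adjusted p = 0.0848). On its dimmer probe it had 9.31, 9.38 and 9.42 with DAC/TSA and 9.72, 9.83 and 9.72 without, and was 1.31-fold lower (adjusted p = 0.00222). Groups did not overlap on either probe, and the mean of both was called (-0.28 log2, adjusted p = 0.00391). Lrp6 was close to the detection floor, with 5.93, 5.83 and 5.90 on DAC/TSA arrays and 5.56, 5.70 and 5.62 on untreated arrays. No untreated array detected it, so only a bound from the means can be given (at least 1.04-fold higher). DAC/TSA array 2 lay within the detection floors of the untreated arrays (5.83 to 5.84), so this bound does not establish an increase. It missed the threshold (adjusted p = 0.0191), and the adjusted p was 0.00889 with the replicate block and 0.00559 after neqc. Lrp5, its paralog, had a difference of -0.01 log2 (95% confidence interval -0.24 to 0.21, adjusted p = 0.927), whose sign turned with median scaling.

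Among 8 secreted inhibitors only Dkk3 had a named kept probe. Dkk3, the divergent Dickkopf that is often silenced by promoter methylation in human tumours, had log2 signals of 7.33, 7.52 and 7.64 with DAC/TSA and 8.50, 8.92 and 9.01 without. Every treated array lay below every untreated array, and array 1 was the lowest in both groups. Dkk3 was 2.48-fold lower (95% confidence interval 2.02 to 3.05, adjusted p = 2.19e-05), the largest decrease among the genes detected in both groups, and its dimmer probe was 2.29-fold lower (adjusted p = 0.000119). Sfrp1, Sfrp2, Sfrp4 and Sfrp5, which bind Wnt proteins through a Frizzled-like domain, the Wnt-binding Wif1, and the Lrp5/6-binding Dkk1 and Dkk2 had no named kept probe. The annotation used here names the probes of the authors' filtered table only, so an undetected gene and a gene whose probe is unnamed cannot be told apart.

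**Figure D4:**
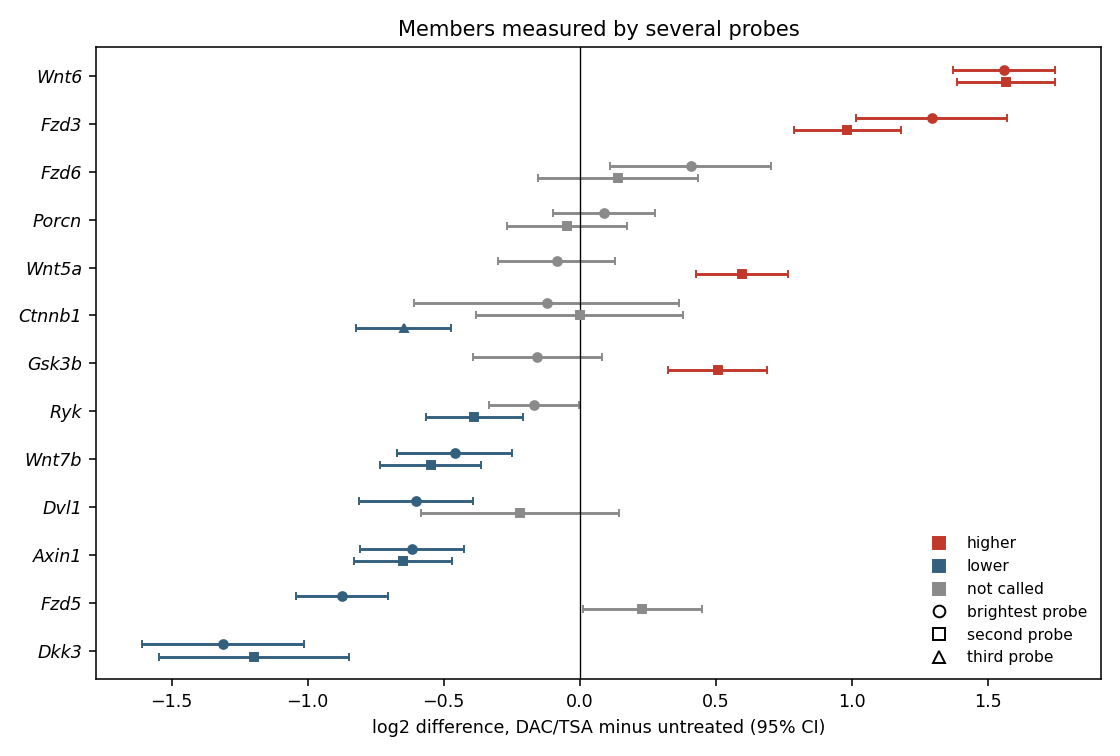
Log2 difference (DAC/TSA minus untreated, bars: 95% confidence interval) of each kept probe of the 13 Wnt genes with several, ordered by their brightest probe. Calls were the same on all probes of 7 genes, such as Wnt6 and Dkk3, and differed in 6, among them Wnt5a, Gsk3b and Ctnnb1.

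Of 3 Dishevelled genes 1 was measured. Dvl1, a Dishevelled protein that carries the signal from the receptor, had log2 signals of 9.33, 9.33 and 9.49 on DAC/TSA arrays and 9.85, 10.02 and 10.10 on untreated arrays. Dvl1 was 1.52-fold lower (95% confidence interval 1.31 to 1.76, adjusted p = 0.000386), with no overlap of the groups. On the dimmer Dvl1 probe the groups overlapped (-0.22 log2, adjusted p = 0.288), and untreated array 1 stood above the other untreated arrays at 7.20 against 6.50 and 6.56. Dvl2 and Dvl3, and the Dishevelled antagonists Nkd1 and Nkd2, had no named kept probe.

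The destruction complex was measured in all 4 listed genes. Axin1, its scaffold, gave 9.67, 9.51 and 9.55 with DAC/TSA and 10.28, 10.09 and 10.21 without. The groups were separate on this probe and on the other one. Axin1 was 1.53-fold lower (95% confidence interval 1.34 to 1.75, adjusted p = 0.000188), and its dimmer probe was 1.57-fold lower (adjusted p = 8.66e-05). Axin2, a scaffold that is itself a widely used β-catenin target, lay near the detection floor and was not called (-0.10 ± 0.09 log2, adjusted p = 0.357), nor was Apc (0.19 ± 0.10 log2, adjusted p = 0.137). For Gsk3b, the kinase of the complex, the brighter probe was not called (-0.16 log2, adjusted p = 0.245). Its dimmer probe had 8.52, 8.40 and 8.44 with DAC/TSA and 8.02, 7.95 and 7.87 without. That probe was 1.42-fold higher (adjusted p = 0.000496), and the mean of both probes turned the sign to 0.18 log2 (adjusted p = 0.0974).

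β-catenin itself, Ctnnb1, had 3 kept probes that did not move together. On the brightest its log2 signal was 9.48, 10.29 and 10.26 with DAC/TSA and 9.78, 10.17 and 10.44 without. Replicates scattered more than the groups differed, with array 1 lowest in each (-0.12 ± 0.22 log2, 95% confidence interval -0.61 to 0.36, adjusted p = 0.666). The sign turned without DAC/TSA array 1 (0.14 log2) and without untreated array 3 (0.04 log2). On the next probe the difference was 0.00 log2 (adjusted p = 0.998). The dimmest probe gave 6.05, 5.97 and 6.09 with DAC/TSA and 6.70, 6.72 and 6.63 without, a 1.57-fold decrease with tight replicates (adjusted p = 7.47e-05).

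Of the TCF/LEF factors, the DNA-binding partners of β-catenin, Tcf7l2 and Tcf7l1 were measured. Tcf7l2 had 6.94, 6.86 and 6.71 on DAC/TSA arrays and 7.52, 7.51 and 7.50 on untreated arrays. Untreated arrays were nearly equal, and all treated arrays were below them. Tcf7l2 was 1.59-fold lower (95% confidence interval 1.40 to 1.82, adjusted p = 9.76e-05). Tcf7l1, mostly known as a repressor, was not called (-0.05 ± 0.11 log2, adjusted p = 0.745), and its sign turned with median scaling (0.03 log2). Tcf7 and Lef1 had no named kept probe.

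A further 93 genes of the pathway outside the 48 were read in the same way. Of these, 45 were measured, with 5 higher, 14 lower and 26 not called, and a median difference of -0.18 log2. Higher genes made up 11.1% of the 45, against 22.5% of all genes, and lower genes 31.1%, against 21.4%. With median scaling 4 were higher and 9 lower, where 13.3% and 8.44% of all genes were. With the replicate block 7 were higher and 21 lower, where 29.4% and 27.3% of all genes were. The called-higher genes were the planar cell polarity genes Prickle1 (0.95 log2, adjusted p = 4.64e-05), Vangl2 (0.66, adjusted p = 0.00084) and Prickle2 (0.65, adjusted p = 0.000278), the kinase gene Map3k7 (0.88, adjusted p = 9.27e-06) and Strap (0.46, adjusted p = 0.000887). Vangl2 and the Prickle proteins form the planar polarity complex that opposes the Frizzled and Dishevelled side of a cell. Of the 17 planar cell polarity genes listed, 10 were measured. On the brightest probe 3 were higher (30%, against 22.5% of all genes) and 1 was lower (10%, against 21.4%). The lower one was Scrib, named after its value was seen (-0.52 log2, adjusted p = 0.00208), and its dimmer probe was not called (-0.215 log2, adjusted p = 0.051). Daam1 was not called on its brightest probe (0.15 log2, adjusted p = 0.239). Its dimmer probes gave -0.73 log2 (adjusted p = 2.72e-05) and -0.60 log2 (adjusted p = 0.0101). The dimmer Prickle1 probe was higher as well (0.55 log2, adjusted p = 0.000504).

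The steepest decreases among these further genes were those of Tpbg, a membrane inhibitor of Wnt signalling (-1.25 log2, adjusted p = 9.85e-07), Bcl9l, a coactivator of β-catenin (-1.08, adjusted p = 1.05e-05), Frat2, a Gsk3-binding protein (-0.99, adjusted p = 2.68e-05), Notum, the enzyme that removes the lipid from Wnt proteins (-0.99, adjusted p = 7.33e-06), and Kremen1, a receptor of Dickkopf proteins (-0.97, adjusted p = 0.000422). These 5 genes hold activators and inhibitors of the pathway alike. Of 42 cytoplasmic and nuclear regulators 28 were measured, with 2 higher (7.14%, against 22.5% of all genes) and 9 lower (32.1%, against 21.4%). Some probes disagreed. Map3k7 was not called on its dimmer probe (0.23 log2, adjusted p = 0.198). Tnks was called higher on its dimmer probe only (0.66 log2, adjusted p = 0.000111), and Ctbp2, Rbx1, Csnk1d and Csnk2a1 were called lower on a dimmer probe only.

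Genes widely described as β-catenin targets moved in both directions. Of 31 listed, 16 were measured, with 3 higher, 6 lower and 7 not called, and a median difference of 0.02 log2. Higher targets made up 18.8% of the 16, near the 22.5% of all genes, and lower targets 37.5%, against 21.4% of all genes. With median scaling 2 were higher and 4 lower, where 13.3% and 8.44% of all genes were. Higher were Nrcam, an adhesion molecule (1.38 log2, adjusted p = 3.25e-06), the receptor Met (0.48, adjusted p = 0.00295) and the mitotic and survival gene Birc5 (0.40, adjusted p = 0.00396). The higher count is sensitive to single arrays, since Nrcam alone passed without DAC/TSA array 1, DAC/TSA array 2, untreated array 2 or untreated array 3. Lower were the transcription factor genes Tbx3 (-1.61 log2, adjusted p = 5.89e-06), Jun (-1.24, adjusted p = 1.56e-06) and Sox9 (-1.05, adjusted p = 7.12e-06), the growth factor Vegfa (-1.09, adjusted p = 0.00056) and the matrix protein Ccn1 (-0.70, adjusted p = 0.00054). Both Vegfa probes, both Sox9 probes and all 4 Tbx3 probes were called lower. Other targets had probes that disagreed. The dimmest Birc5 probe missed the threshold (0.29 log2, adjusted p = 0.0129). Cd44 was not called on its brightest probe (0.02 log2, adjusted p = 0.875), and its next probe was called lower (-0.33 log2, adjusted p = 0.00751). Its dimmer probes were called higher (0.79, 1.24 and 0.46 log2) or not called (0.17 log2), and the mean of its probes was called higher. The cell cycle target Ccnd1 (0.16 log2, adjusted p = 0.167) and Myc (0.19 log2, adjusted p = 0.0803), named after their values were seen, were not called.

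**Figure D5:**
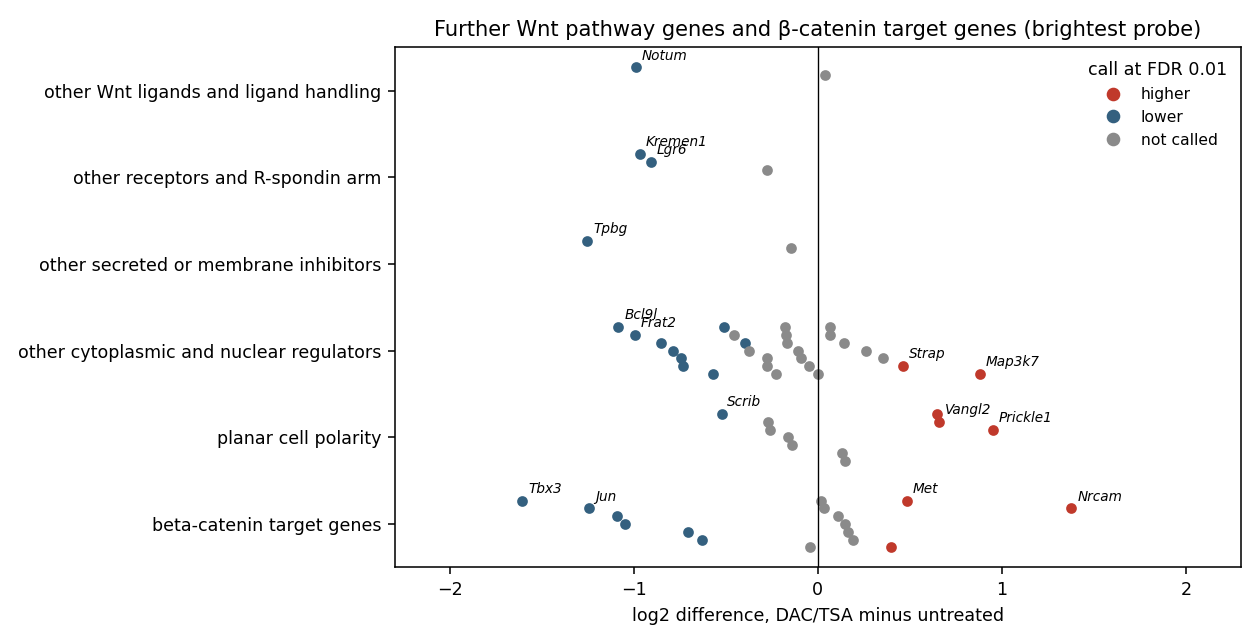
Log2 difference (DAC/TSA minus untreated, brightest probe) of the 45 measured further Wnt pathway genes and the 16 measured β-catenin target genes, 1 point per gene, by role. Calls run from -1.61 in Tbx3 to 1.38 in Nrcam, with called genes on both sides of 0 in each list.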

How the data were processed

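Array signals of 3 DAC/TSA and 3 untreated cultures of TC-1/A9 cells were analysed, with groups and replicate numbers taken from the sample titles. The authors extracted bead data with BeadStudio, and deposited 1 linear, unnormalised signal intensity per probe. The deposited detection p-value beside it compares the probe with negative controls. The authors' log2 values were quantile-normalised with lumi and limma in R (versions not used here).

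Intensities of 45281 probes were quantile-normalised and put on the log2 scale. Over the 16148 probes for which the authors deposited log2 values, no value was more than 0.0125 away from theirs. A probe was kept if any array detected it (p at most 0.01), which left 17445, of which 13943 carried 1 gene symbol, 7 several and 3495 none here. Symbols were matched to RefSeq (GRCm38.p6), where Tiki1 of the further pathway list was not matched. A gene was read on its brightest kept probe. Groups were compared by limma 3.58.1 in R 4.3.3 (lmFit, eBayes, two-sided), with Benjamini-Hochberg adjustment over all kept probes and a threshold of 0.01, and the fit was tested on simulated data. Errors of differences are standard errors. The number of arrays limits precision, and slide positions were not known.

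Deviations from the group means correlated between same-numbered arrays at r = 0.63, 0.24 and 0.36. Arrays 2 and 3 of opposite groups correlated as closely (0.37 and 0.38). Only the arrays numbered 1 thus stood out as a pair, and the labels give no shared day or batch. The main fit has no block. Alternatives were median scaling, neqc and normexp background correction (offset 50), other detection filters, all probes of a gene averaged, the authors' log2 values, the replicate block and leaving out arrays. Called genes with a difference of at least 0.5 log2 are given with all arrays, other measured genes with their difference, and of the further lists the 5 largest calls in each direction. Genes and lists were chosen with earlier results of these data known. Figures were drawn with matplotlib 3.10.9.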

Additional observations from a re-analysis of the deposited data

How the results depend on the processing

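Of 375 pairs of a measured Wnt gene and an alternative, 349 kept direction and side of the threshold, 8 lost the call, 6 gained it and 12 turned sign. The authors' log2 values and the other detection filters refit the same probes on nearly the same values, so they could hardly change a result. Each of them left all 25 genes the same, which raises the count of 349. Of the 12 called genes, 6 were called in the same direction under every alternative run. With median scaling, 3 Wnt genes were lower (Dkk3, Fzd7 and Fzd5) in place of 9, and Wnt7b, Fzd2, Ror2, Dvl1, Axin1 and Tcf7l2 kept their sign without passing. Lower calls among the further pathway genes were then 9 in place of 14, and 61.1% of all calls were higher in place of 51.3%. With the replicate block, 5 Wnt genes were higher in place of 3, by Fzd6 and Lrp6, and no other Wnt gene changed its call. The cause of these changes was not tested.

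Leaving out 1 array at a time gave 3 higher Wnt genes each time and 8 to 9 lower ones, 5 to 6 higher and 12 to 16 lower further pathway genes, and 1 to 3 higher β-catenin targets, with 6 lower each time. All changes of sign fell on genes that were not called. The mean of a gene's probes gave 0.26 log2 for Wnt5a and 0.18 for Gsk3b. Median scaling gave 0.0824 for Lrp5 and 0.0327 for Tcf7l1. With single arrays left out, Lrp5 ranged from -0.111 to 0.0466, Ctnnb1 from -0.30 to 0.14 and Tcf7l1 from -0.1383 to 0.034. Without both arrays numbered 1, an alternative chosen after seeing the data, Lrp5 was at 0.02 and Fzd6 passed (0.35 log2, adjusted p = 0.00282). Dim probes near the detection floor, such as those of Lrp6, Wnt5b and Axin2, limit what can be seen of those genes.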
